A study of Mus musculus with 12 samples.

Results

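The mitochondrial solute carrier family (SLC25) was described in mouse skeletal muscle as the genes whose symbol starts with Slc25a. Of 46 such symbols in either of 2 count tables, 41 were in both tables, and 37 of these had 10 or more counts in 3 or more of the 12 libraries. The 37 carriers are described here, out of 21976 genes in both tables. Of the carriers described, Slc25a45 and Slc25a14 reached 10 counts in the fewest libraries, 10 and 11. Just outside the rule was Slc25a2, which reached 10 counts in 2. Slc25a18, Slc25a43 and Slc25a48 were at 10 counts in 0 libraries.

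Muscle RNA was sequenced from C57BL/6N mice, 3 libraries in each of 4 groups. All mice began the diets at 6 weeks of age and stayed on them for 18 weeks. The Chow group ate regular chow and was not injected, and the HFD group ate a high-fat diet and was not injected. The Vehicle group ate the high-fat diet and was injected into the peritoneal cavity on 4 days, once daily, with 30% DMSO in corn oil, and the PCN group ate the same diet and was injected in the same way with 50 mg/kg of PCN. PCN is pregnenolone carbonitrile, a steroid that activates the rodent pregnane X receptor. Libraries are named by the number in their title (Chow 8, 17 and 19, HFD 4, 30 and 38, Vehicle 15, 23 and 55, PCN 5, 11 and 27). The labels do not say that each library came from a separate mouse, so p-values measure only the spread between these samples, and the sources do not name the muscle sampled. The injected and uninjected high-fat groups differ by injection and by the table that holds them.

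SLC25 proteins sit mostly in the inner mitochondrial membrane, are made in the cytosol from nuclear genes, and move nucleotides, phosphate, keto acids, amino acids, carnitine esters, cofactors and metal ions between cytosol and matrix. In muscle the best known of them is the adenine nucleotide translocase, which exports ATP made by oxidative phosphorylation in exchange for ADP, beside the phosphate carrier that supplies the phosphate. Others carry reducing equivalents through the malate-aspartate shuttle or bring long-chain acylcarnitines to β-oxidation.

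Libraries held 12770308 to 19739226 counts. Fast-fibre markers (11 of 12 genes in both tables, with Myh4 the highest in every library) summed to between 82690 and 169400 CPM. CPM are counts scaled to a common library size, on 1 TMM scale over the 12 libraries. Libraries differed in fibre genes: the slow-fibre markers in both tables (3 of 10, Myh7b, Tpm3 and Casq2) summed to 140.8 CPM in PCN 5, 119.1 in Chow 17, 114.7 in Chow 19 and 68.6 in Vehicle 55, against 16.5 to 40.5 in the other 8. Genes of the mitochondrial genome took 10.8% to 20.4% of counts, with the highest share in Chow 17, Vehicle 55 and PCN 5. In bulk muscle, fewer cells of a type and less RNA per cell cannot be told apart.

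Promoters are shown for Slc25a4, which leads the family in level, and for the 4 carriers that were highest in the same 3 libraries. Sequences are the 250 bases before the RefSeq start, build GRCm38.p6, read 5′ to 3′ on the gene's strand. They lie at chr8:46211063-46211312 (minus strand) for Slc25a4, chr10:91123968-91124217 (minus) for Slc25a3, chr11:70647040-70647289 (minus) for Slc25a11, chr9:108661886-108662135 (plus) for Slc25a20 and chr4:141623835-141624084 (minus) for Slc25a34. Gene spans in the count tables can begin upstream of the RefSeq start. The span of Slc25a11 (70644196 to 70647479) holds its whole window, and those of Slc25a4, Slc25a3 and Slc25a20 hold part of theirs. Only the Slc25a34 window lies wholly before its gene span, so the other windows can include transcribed bases. Capitals mark the CCAAT box in Slc25a4, Slc25a11 and Slc25a34 (ATTGG where it is on the other strand), the ETS site CCGGAAG in Slc25a4, Slc25a3 and Slc25a20, the NRF1 core and the CRE half-site TGACGT in Slc25a3, and the nuclear receptor half-site in Slc25a34 (TGACCT, the other strand of AGGTCA).
Slc25a4: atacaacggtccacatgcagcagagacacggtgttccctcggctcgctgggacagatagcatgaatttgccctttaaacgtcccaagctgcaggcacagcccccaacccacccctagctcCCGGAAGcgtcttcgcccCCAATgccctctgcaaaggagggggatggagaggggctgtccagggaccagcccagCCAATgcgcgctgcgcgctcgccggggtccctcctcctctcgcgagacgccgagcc
Slc25a3: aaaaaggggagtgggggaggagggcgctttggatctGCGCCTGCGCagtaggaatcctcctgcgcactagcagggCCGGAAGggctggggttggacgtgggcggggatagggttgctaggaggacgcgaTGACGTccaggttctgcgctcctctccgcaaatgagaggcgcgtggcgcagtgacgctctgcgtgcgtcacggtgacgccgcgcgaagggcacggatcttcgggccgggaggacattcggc
Slc25a11: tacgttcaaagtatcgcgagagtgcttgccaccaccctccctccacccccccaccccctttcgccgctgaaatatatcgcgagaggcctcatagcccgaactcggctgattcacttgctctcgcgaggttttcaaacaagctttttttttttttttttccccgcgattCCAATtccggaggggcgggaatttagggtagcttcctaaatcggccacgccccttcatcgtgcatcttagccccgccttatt
Slc25a20: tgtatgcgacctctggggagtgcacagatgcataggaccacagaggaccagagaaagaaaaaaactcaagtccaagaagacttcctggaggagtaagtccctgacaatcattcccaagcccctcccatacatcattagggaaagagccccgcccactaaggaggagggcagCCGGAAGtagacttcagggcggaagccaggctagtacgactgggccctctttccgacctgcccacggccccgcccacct
Slc25a34: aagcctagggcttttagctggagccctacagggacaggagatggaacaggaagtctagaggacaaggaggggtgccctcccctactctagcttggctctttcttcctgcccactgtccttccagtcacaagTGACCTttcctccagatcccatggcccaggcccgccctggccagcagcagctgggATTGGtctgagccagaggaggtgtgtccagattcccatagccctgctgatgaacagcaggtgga

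Motifs were counted on both strands in RefSeq windows of 300 bases (250 before and 50 after the start), which 28 of the 37 carriers had. The GC box GGGCGG was in 27 of 28 carriers (96.4%), all but Slc25a12, against 68.6% of 9878 expressed genes and 38.2% of all 27025 genes. CCAAT was in 16 carriers (57.1%), against 42.5% of expressed and 41.1% of all genes. The ETS site CCGGAAG was in 6 (21.4%, expressed 19.9%, all 9.93%), and TGACGT was in 5 (17.9%, expressed 13.3%, all 8.37%). The core palindrome of the NRF1 site was in 1 carrier, Slc25a3 (3.57%, expressed 11.4%, all 5.19%). AGGTCA was in 3, Slc25a34, Slc25a39 and Slc25a45 (10.7%, expressed 14.8%, all 18.1%), and the longer TCAAGGTCA, which contains AGGTCA, was in 0 (expressed 0.294%, all 0.466%). A match is a description of letters in these windows only.

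The family was led by a single gene. Slc25a4, the muscle and heart adenine nucleotide translocase (chromosome 8, 46206797 to 46211284), averaged 864 CPM per kb of exon and made up 74.0% of the family's summed level per kb. It was at 2169, 2850 and 1930 CPM in libraries Chow 8, 17 and 19, at 1597, 1752 and 1997 in HFD 4, 30 and 38, at 2021, 2130 and 2116 in Vehicle 15, 23 and 55, and at 2241, 2102 and 1486 in PCN 5, 11 and 27. Chow 17 was the highest library and PCN 27 the lowest. Its share of the family's CPM was 59.1 ± 3.09% in Chow, 55.5 ± 2.23% in HFD, 57.1 ± 0.432% in Vehicle and 56.7 ± 3.52% in PCN (SD, n = 3). Slc25a5, the translocase isoform of most dividing cells, averaged 12.3 CPM per kb, so the ratio of Slc25a4 to Slc25a5 per kb ran from 57.0 (PCN 27) to 82.9 (Chow 17). Slc25a5 has processed pseudogenes, between which reads can be lost or moved.

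The next 4 carriers by level per kb could not be ranked apart. Their order depends on the exon lengths, which ran from 2120 bases (Slc25a11) to 7862 (Slc25a25). In CPM without length, Slc25a3, Slc25a12, Slc25a11 and Slc25a25 averaged 262, 337, 94.7 and 283. Slc25a3, the phosphate carrier, averaged 47.3 CPM per kb (34.6 to 66.9 over the libraries). Slc25a12, the calcium-activated aspartate-glutamate carrier of the malate-aspartate shuttle, averaged 45.9 (31.5 to 57.8), and Slc25a11, the oxoglutarate-malate carrier of the same shuttle, averaged 44.7 (29.4 to 63.9). Slc25a25, an ATP-Mg/phosphate carrier, averaged 36.0 (23.5 to 51.2). These ranges overlap one another, and all lie below the lowest Slc25a4 value of 631.7 CPM per kb.

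A lower step held Slc25a20, the carnitine-acylcarnitine carrier (14.0 CPM per kb), Slc25a5, Slc25a34, an orphan carrier whose substrate is not settled (11.3), Slc25a39, needed for mitochondrial glutathione (10.2), Slc25a46, an outer membrane protein of mitochondrial fusion and fission (9.99), and Slc25a51, the NAD+ carrier (9.89). With these the top 11 genes reached 94.8% of the family total per kb. Slc25a44, linked to branched-chain amino acids, averaged 7.85, and Slc25a28, the iron carrier mitoferrin 2, averaged 7.45, against 1.70 for Slc25a37, mitoferrin 1. Uncoupling-related carriers under the Slc25a symbol were low: 2.20 for Slc25a30, 1.74 for Slc25a27 and 0.418 for Slc25a14. The citrate carrier Slc25a1 (1.06), the dicarboxylate carrier Slc25a10 (0.808) and Slc25a53 (0.175) stood near the foot of the order, as the plot of levels shows.

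**Figure D1:**
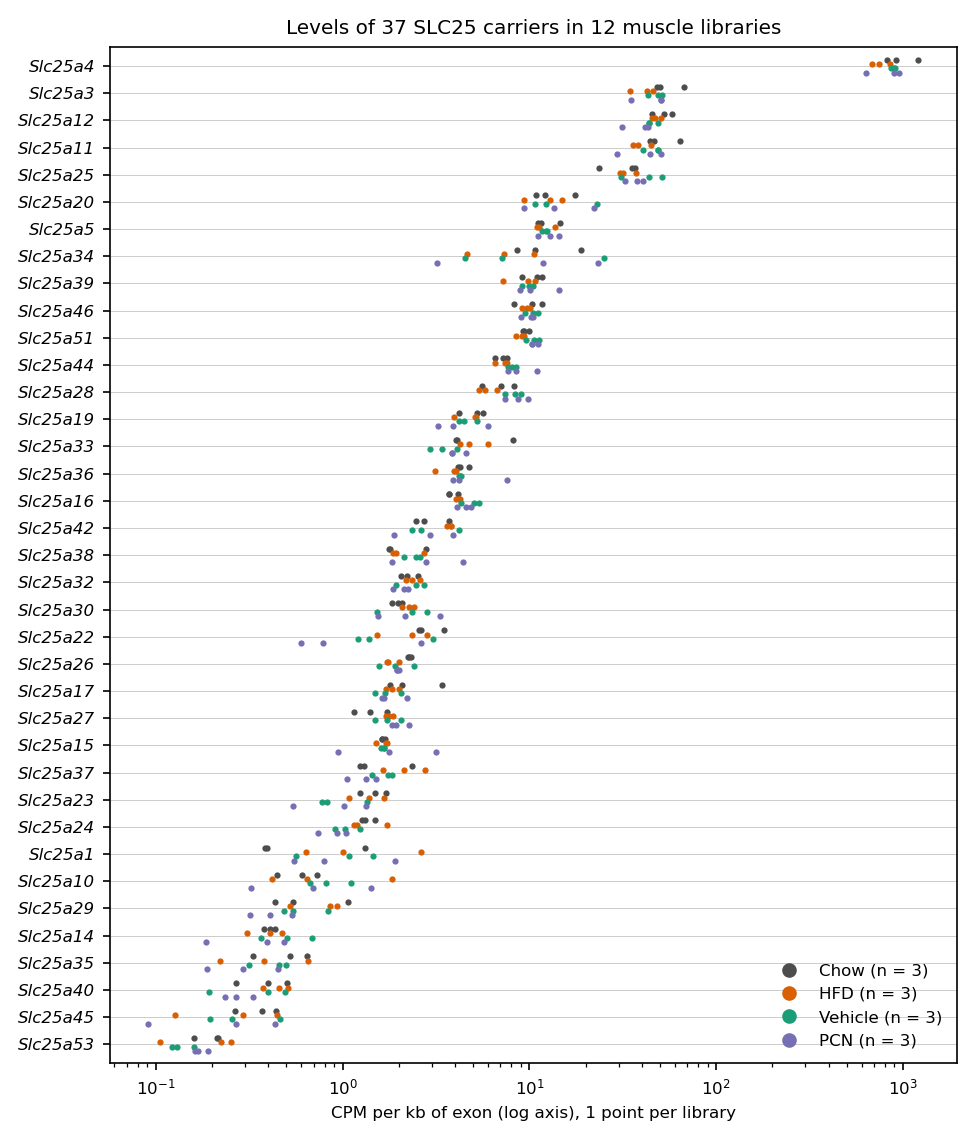
Level of the 37 carriers in the 12 libraries, ranked by mean, in CPM per kb of exon on a log axis, 1 point per library and 1 colour per group. Slc25a4 (631.7 to 1211 CPM per kb) stands above all others, and Slc25a34 and Slc25a22 have wide rows.

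Carriers of the family under other names were also read. Ucp3, the muscle uncoupling protein, was at 240.3 to 375.1 CPM and at 99.2 CPM per kb on average, above every Slc25a gene but Slc25a4. Ucp2 was at 5.25 to 14.3 CPM. Mtch1 and Mtch2, outer membrane relatives of the family, averaged 4.90 and 8.71 CPM per kb. Ucp1, the brown fat uncoupling protein, was read in PCN and Vehicle only and was at 0 to 0.325 CPM.

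The other 5 Slc25a symbols were in 1 table only. Slc25a13, the second aspartate-glutamate carrier, had 6 to 22 counts in the Chow and HFD libraries, under a level of 1.25 CPM, beside 332.3 to 424.7 CPM for Slc25a12 in the same libraries. Slc25a47 had 25 to 86 counts there. Slc25a41, Slc25a5-ps and, in the other table, Slc25a21 had at most 4 counts a library. The libraries of the other table were not analysed here for these 5.

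The first comparison, HFD against Chow, asks what the diet did. None of the 37 carriers passed the threshold (edgeR quasi-likelihood test, Benjamini-Hochberg adjusted p below 0.05 over all genes), and 0 of 12686 genes did (0%). DESeq2 also called 0 carriers. By edgeR 1 carrier, Slc25a3, had an unadjusted p below 0.05, 2.70% of 37 against 7.69% of all genes tested (3.78% higher and 3.91% lower in HFD). The median log2 fold change of the carriers was -0.06, beside 0.00 over all genes tested, with 21 of 37 lower in HFD (56.8%, all genes 49.9%). For 32 of 37 the fitted difference was under 1.3-fold. The 2 groups did not overlap for 4 carriers (10.8%, all genes 12.8%, of which 5.75% were higher and 7.08% lower), Slc25a3, Slc25a26 and Slc25a36 lower and Slc25a30 higher in HFD.

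Among the adenine nucleotide and phosphate carriers, Slc25a3 (chromosome 10, 91116574 to 91124059) had the lowest p of the family. It was at 268, 371 and 278 CPM in libraries Chow 8, 17 and 19 and at 192, 236 and 254 in HFD 4, 30 and 38, so every HFD library lay under every Chow library. The log2 fold change was -0.41 ± 0.17 (SE, adjusted p = 0.643). Slc25a4 had a log2 fold change of -0.36 ± 0.19 (adjusted p = 0.656), and the groups overlapped. The values without Chow 17 were -0.26 for Slc25a3 and -0.20 for Slc25a4. Slc25a5 (-0.03 ± 0.15) and Slc25a25 (0.06 ± 0.19) stood near 0, with 95% intervals of -0.38 to 0.31 and -0.36 to 0.48.

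Of the shuttle and carboxylate carriers, Slc25a11 (chromosome 11, 70644196 to 70647479) was at 98.7, 135 and 93.4 CPM in libraries Chow 8, 17 and 19 and at 76.1, 81.2 and 94.9 in HFD 4, 30 and 38. Only HFD 38 reached into the Chow range, and the log2 fold change was -0.36 ± 0.17 (adjusted p = 0.647; -0.19 without Chow 17). Some 8.92% of its exon bases overlap Rnf167 on the other strand. Slc25a12 was at -0.11 ± 0.14. The citrate carrier Slc25a1, the step that supplies cytosolic citrate for lipid synthesis, had the largest fitted difference, 1.13 ± 0.66 (adjusted p = 0.685). It was at 2.84, 0.832 and 0.847 CPM in libraries Chow 8, 17 and 19 and at 1.37, 2.16 and 5.67 in HFD 4, 30 and 38. The value without HFD 38 was 0.30, and Chow 8 lay above HFD 4 and HFD 30. Counts were low, at 35, 13 and 15 in libraries Chow 8, 17 and 19. HFD 38 also had the highest sums of the adipocyte (2755 CPM), macrophage (155.1 CPM) and fibroblast (1298 CPM) markers of all 12 libraries, with 14 of 14, 13 of 13 and 10 of 10 list genes in both tables, and their part in the Slc25a1 value was not tested.

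In the cofactor and nucleotide group, Slc25a42, the coenzyme A carrier, was at 14.9, 16.3 and 22.2 CPM in libraries Chow 8, 17 and 19 and at 21.6, 22.8 and 22.8 in HFD 4, 30 and 38, a log2 fold change of 0.34 ± 0.17 (adjusted p = 0.648). Chow 19 alone reached into the HFD range. Slc25a26, the S-adenosylmethionine carrier, had 10.8 to 11.1 CPM in Chow and 8.30 to 9.67 in HFD (-0.30 ± 0.15, adjusted p = 0.651). Slc25a36, a pyrimidine nucleotide carrier, had 39.8 to 45.5 CPM in Chow and 30.1 to 38.6 in HFD (-0.23 ± 0.14, adjusted p = 0.681). Slc25a33, the other pyrimidine nucleotide carrier, was at 15.4 CPM in Chow 8 and at 7.62 and 7.74 in the other Chow libraries, so its value of -0.09 ± 0.29 turned to 0.32 without Chow 8.

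Of the remaining groups, Slc25a20 was at -0.11 ± 0.22 and Slc25a34 at -0.73 ± 0.38 (adjusted p = 0.669; -0.34 without Chow 17). Slc25a37 was at 0.41 ± 0.28, Slc25a28 at -0.21 ± 0.16 and Slc25a30 at 0.21 ± 0.15. Slc25a13 was at -0.36 ± 0.43. Ucp2 was at 9.42, 5.25 and 7.68 CPM in libraries Chow 8, 17 and 19 and at 9.43, 9.63 and 14.3 in HFD 4, 30 and 38, a log2 fold change of 0.61 ± 0.25 (adjusted p = 0.635). All HFD values were above all Chow values for Ucp2, the nearest pair by a margin of 9.43 to 9.42.

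**Figure D2:**
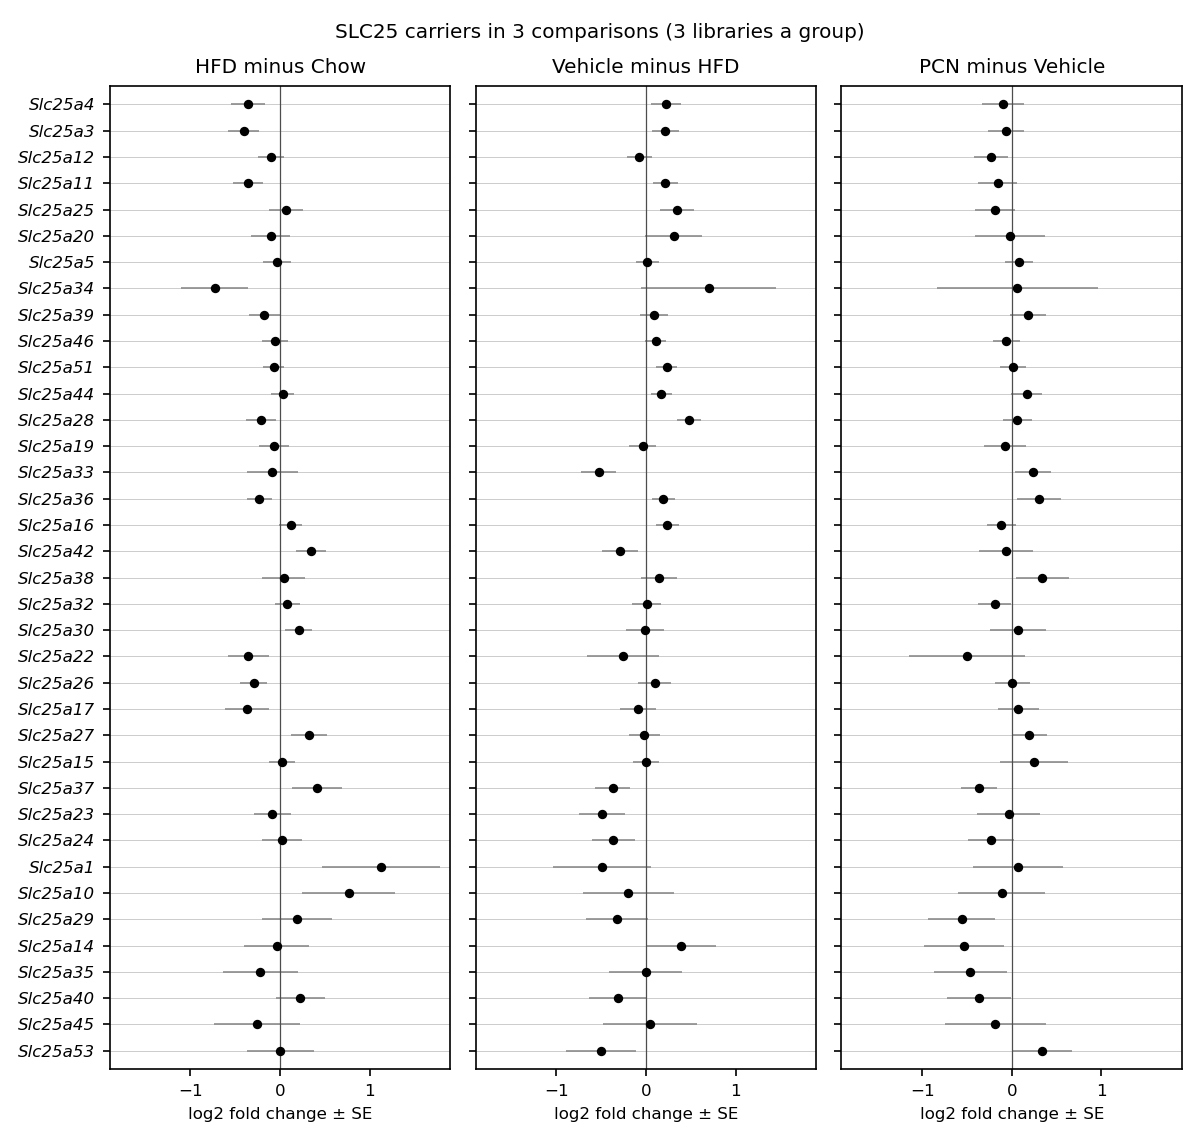
Log2 fold change ± SE of the 37 carriers, ordered by level, in HFD minus Chow, Vehicle minus HFD and PCN minus Vehicle (n = 3 libraries a group). No carrier passed the adjusted threshold. HFD minus Chow and Vehicle minus HFD share the HFD libraries, Vehicle minus HFD and PCN minus Vehicle share the Vehicle libraries, and the upper rows mostly lie left of 0 in the first and right of 0 in the second.

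The carriers can be split by level. Of the 10 carriers highest per kb, 9 had lower fitted levels in HFD than in Chow, with a median of -0.14, and of the other 27, 12 did, with a median of 0.02. The split was chosen after the values had been seen, and the difference was not tested. The median of the 10 was -0.26 without Chow 19 and -0.08 without HFD 4. All 28 nuclear genes of the respiratory chain list had fitted levels under Chow (median -0.39, and -0.20 without Chow 17), and 0 of them passed. Of 9 slow-fibre genes tested, 9 also had lower fitted levels in HFD (median -4.44). By edgeR 7 had an unadjusted p below 0.05 (77.8%, all genes 7.69%, with 3.91% lower in HFD). For 4 the groups did not overlap (44.4%, all genes 12.8%, with 7.08% lower). The large slow-fibre differences lay mainly in Chow 17 and Chow 19. Myl2, the gene at that median, had 4.30, 81.5 and 65.6 CPM in libraries Chow 8, 17 and 19. It had 0.725, 2.23 and 3.67 in HFD 4, 30 and 38. Tpm3 was at 15.9 CPM in Chow 8, within the HFD range of 13.9 to 20.1. In Chow 17 and Chow 19 Tpm3 was at 86.6 and 85.6 CPM. Fitted levels were also lower in HFD for 5 of 5 red blood cell genes (median -0.71). Of these, 4 had an unadjusted p below 0.05 (80%, all genes 7.69%, with 3.91% lower). Of 7 endothelial genes 5 were lower, and 3 of 7 had an unadjusted p below 0.05 (42.9%). Macrophage genes were higher in HFD for 12 of 13, with 3 at an unadjusted p below 0.05 (23.1%). In the adipocyte and fibroblast lists 0 of 14 and 1 of 10 had such a p. By edgeR 0 genes of these lists passed. With the slow-fibre covariate, which rests on 3 genes, the medians were -0.12 for the 10 carriers and -0.23 for the respiratory chain list. The part of red blood cells, endothelial cells and macrophages was not tested. The range over the carriers was -0.73 to 1.13, and that over the respiratory chain list -0.59 to -0.15.

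Partners of the carriers were read from lists of 44 genes, 43 of them tested, of which 0 passed and 8 had an unadjusted p below 0.05 (18.6%, all genes 7.69%). The import list holds the outer membrane translocase and the small Tim proteins that escort carrier precursors to the inner membrane. For 10 of its 12 genes the fitted level was lower in HFD (median -0.15). The outer membrane receptor Tomm20 had 40.8, 48.6 and 41.3 CPM in libraries Chow 8, 17 and 19 and 29.7, 30.1 and 31.7 in HFD 4, 30 and 38, a log2 fold change of -0.50 ± 0.13 (adjusted p = 0.505). Got1, the cytosolic aspartate aminotransferase of the malate-aspartate shuttle, was at -0.48 ± 0.16 (adjusted p = 0.635), Mpc1, a pyruvate carrier subunit, at -0.53 ± 0.20, and Timm10 at -0.58 ± 0.24.

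The comparison of Vehicle with HFD sets injected against uninjected mice on the same diet, with the same HFD libraries as above and from 2 joined tables. None of the 37 carriers passed, where 193 of 12746 genes did (1.51%, with 0.526% higher and 0.989% lower in Vehicle). DESeq2 called 0 carriers. The carriers' median was 0.01, with 17 of 37 lower in Vehicle (all genes 50.1%) and 2 at an unadjusted p below 0.05 (5.41%, all genes 17.8%), Slc25a28 higher (all genes 8.66%) and Slc25a33 lower (all genes 9.17%). The groups did not overlap for 7 carriers (18.9%, all genes 23.4%), 6 higher (all genes 12.1%) and 1 lower in Vehicle (all genes 11.3%).

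The carrier with the lowest p was Slc25a28, mitoferrin 2 (chromosome 19, 43663822 to 43674881), which brings iron into the matrix for haem and iron-sulphur clusters. It was at 25.1, 21.6 and 20.1 CPM in HFD 4, 30 and 38 and at 31.5, 33.8 and 27.9 in Vehicle 15, 23 and 55, so all Vehicle values lay above all HFD values. The log2 fold change was 0.48 ± 0.13 (95% interval 0.19 to 0.78), at an adjusted p of 0.0996. The value was past the threshold without Vehicle 55 (0.56, adjusted p = 0.0250) and with the slow-fibre level as a covariate (0.48, adjusted p = 0.0350), and the adjusted p over the alternatives ran from 0.0250 to 0.368. PCN libraries were at 27.7, 32.7 and 36.7 CPM and Chow libraries at 26.3, 30.9 and 20.9. The other mitoferrin, Slc25a37, was at 16.7, 12.8 and 9.89 CPM in HFD and at 10.5, 8.66 and 11.1 in Vehicle (-0.37 ± 0.20, adjusted p = 0.374), so the fitted values of the pair lay on opposite sides of 0. Red blood cell markers (6 of 6 genes, globins included) summed to 48.9 to 60.2 CPM in HFD. In Vehicle 15, 23 and 55 they summed to 44.9, 74.5 and 214.5 CPM. The part of red blood cells in the mitoferrin values was not tested.

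Slc25a33 was at 7.98, 9.005 and 11.3 CPM in HFD 4, 30 and 38 and at 7.74, 6.39 and 5.57 in Vehicle 15, 23 and 55. The groups did not overlap, and the log2 fold change was -0.53 ± 0.19 (adjusted p = 0.187). Some 14.9% of its exon bases overlap the antisense gene Gm13068, whose reads cannot be told apart without a stated strand setting. Slc25a25, a carrier that loads the matrix with ATP and ADP, was at 402.8, 345 and 243 CPM in Vehicle 15, 23 and 55 and at 293, 248 and 239 in HFD 4, 30 and 38 (0.34 ± 0.19, adjusted p = 0.390). Vehicle 55 stood within the HFD range, and without it Slc25a25 passed (0.52, adjusted p = 0.0488), as did Slc25a42, lower in Vehicle (-0.59, adjusted p = 0.0192; -0.29 ± 0.20 with all libraries). Without Vehicle 55, 1180 genes passed in all.

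**Figure D3:**
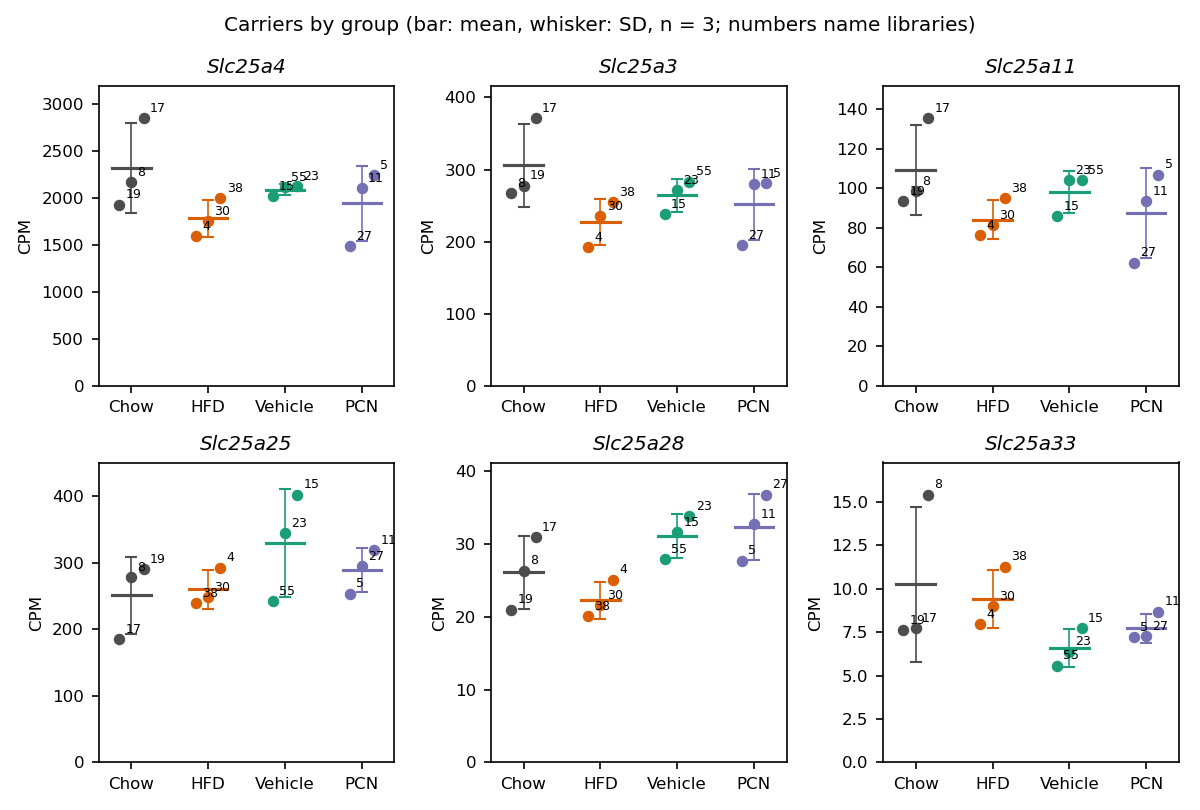
CPM of Slc25a4, Slc25a3, Slc25a11, Slc25a25, Slc25a28 and Slc25a33 in each library, by group (bar: mean, whisker: SD, n = 3, axes from 0). HFD values of Slc25a3 lie under the Chow values, Slc25a28 is at 27.9 to 33.8 in Vehicle against 20.1 to 25.1 in HFD, and Chow 8 stands apart for Slc25a33 (15.4).

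Among the other carriers, Slc25a51 was at 46.6 to 51.3 CPM in HFD and 53.1 to 62.2 in Vehicle (0.23 ± 0.12, adjusted p = 0.352), without overlap. Slc25a16, linked to coenzyme A, was at 19.3 to 20.3 CPM in HFD and 20.5 to 25.6 in Vehicle (0.24 ± 0.13, adjusted p = 0.376), also without overlap. Slc25a23, a calcium-binding ATP-Mg/phosphate carrier, was at -0.49 ± 0.25 (adjusted p = 0.357) and Slc25a11 at 0.22 ± 0.14. Slc25a4 (0.23 ± 0.17) and Slc25a3 (0.22 ± 0.15) were fitted above HFD. For 9 of the 10 carriers highest per kb the fitted level was higher in Vehicle than in HFD (median 0.22, and 0.07 without Vehicle 55). The HFD libraries are those of the diet comparison, where 9 of 10 were fitted below Chow. For the other 27, 11 were higher (median -0.02).

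Fitted levels were mostly higher in Vehicle in the other mitochondrial lists too, for 25 of 28 respiratory chain genes (median 0.20), for 6 of 6 pyruvate carrier and porin genes (median 0.15) and for the import list. For 11 of its 12 genes the fitted level was higher in Vehicle, with a median of 0.38, 4 at an unadjusted p below 0.05 (33.3%, all genes 17.8%, of which 8.66% were higher), and 7 with groups that did not overlap (58.3%, all genes 23.4%). None passed with all libraries and no covariate by edgeR. Timm8b, a small Tim chaperone of the intermembrane space, was at 23.6, 25.5 and 26.0 CPM in HFD and at 34.3, 37.6 and 32.0 in Vehicle, a log2 fold change of 0.47 ± 0.12 (adjusted p = 0.0817). Timm8b passed by DESeq2 (adjusted p = 0.0477) and, by edgeR, with the slow-fibre covariate (adjusted p = 0.0384) and without Vehicle 55 (adjusted p = 0.0230). Tomm40, the pore of the outer membrane translocase, was at 0.39 ± 0.13 (adjusted p = 0.149), Tomm22 at 0.38 ± 0.13 (adjusted p = 0.168) and Tomm20 at 0.39 ± 0.15 (adjusted p = 0.200). Mtch2 was at 0.29 ± 0.13 (adjusted p = 0.252). Fibroblast and matrix markers lay the other way: 9 of 10 had lower fitted levels in Vehicle (median -0.62). Of these, 1 passed (all genes 0.989% lower). The marker sums were 510.1 to 633.4 CPM in Vehicle and 696.5 to 1298 in HFD, without overlap. Their part in these values was not tested.

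**Figure D4:**
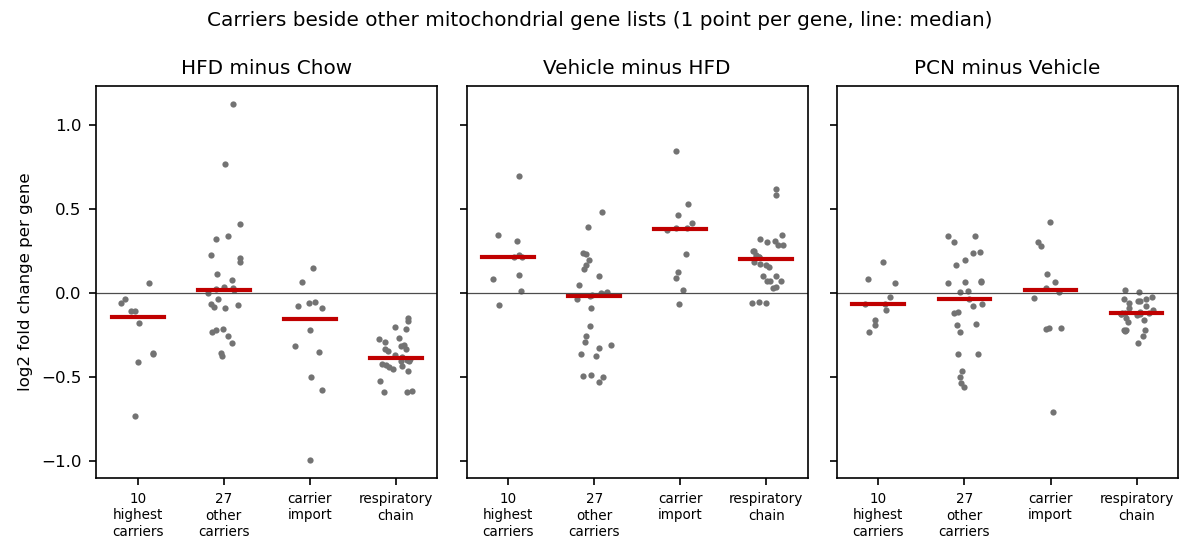
Log2 fold change of each gene in 4 lists, 1 point per gene, with the median as a line, in 3 comparisons. In HFD minus Chow the respiratory chain median (-0.39) lies below that of the 10 highest carriers (-0.14) and of the other 27 (0.02), and in Vehicle minus HFD the import median is 0.38.

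The last comparison, PCN with Vehicle, asks what the receptor agonist did in mice on the high-fat diet. None of the 37 carriers passed, 0 of 12833 genes passed (0%), and 0 carriers had an unadjusted p below 0.05 (all genes 2.82%). DESeq2 called 0 carriers. The carriers' median was -0.06, with 21 of 37 lower in PCN (56.8%, all genes 47.7%). The fitted difference was under 1.3-fold for 33 of 37 and above 1.5-fold for 0. Groups did not overlap for 2 carriers (5.41%, all genes 8.4%), Slc25a12 lower (all genes 4.18%) and Slc25a53 higher in PCN (all genes 4.22%). This comparison shares the Vehicle libraries with the one before. Of the 10 carriers highest per kb, 7 had lower fitted levels in PCN (median -0.06). So had 26 of 28 respiratory chain genes (median -0.12) and 5 of 6 pyruvate carrier and porin genes (median -0.09). In these 3 lists 0 genes had an unadjusted p below 0.05. In the import list 5 of 12 were lower (median 0.02), and 1 gene had an unadjusted p below 0.05 (8.33%, all genes 2.82%). Fitted levels were lower in PCN for 12 of 14 adipocyte genes (median -0.95) and 8 of 10 fibroblast and matrix genes (median -0.40). By edgeR 3 (21.4%) and 2 (20%) of them had an unadjusted p below 0.05. Red blood cell genes were lower for 5 of 5 (median -0.62, 0 at such a p), and endothelial genes were higher for 5 of 7. The part of these cells in the carrier values was not tested.

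Slc25a12 (chromosome 2, 71271063 to 71367749) was at 320.5, 320.0 and 359.6 CPM in Vehicle 15, 23 and 55 and at 304, 316 and 231 in PCN 5, 11 and 27. PCN 5 and PCN 11 lay just under the Vehicle values and PCN 27 further down, and the log2 fold change was -0.23 ± 0.19 (adjusted p = 0.998). Slc25a4 was at -0.10 ± 0.24 (95% interval -0.63 to 0.43), Slc25a3 at -0.07 ± 0.20 and Slc25a5 at 0.08 ± 0.16. Slc25a37 had the lowest p of the family, at -0.36 ± 0.20 (adjusted p = 0.998; 95% interval -0.82 to 0.09). Slc25a29, a basic amino acid carrier, was at -0.56 ± 0.38, Slc25a14 at -0.53 ± 0.44 and Slc25a35 at -0.47 ± 0.41, all at most 2.17 CPM in these libraries. Of the exon bases of Slc25a35, 31.3% overlap Rangrf.

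PCN 27 was often at an end of the range. It was the lowest of the 12 libraries for 11 of 37 carriers and the highest for 5, Slc25a36, Slc25a38, Slc25a44, Slc25a28 and Slc25a27. Slc25a36 was at 72.5 CPM in PCN 27 against 40.3 and 37.3 in PCN 5 and 11 and 40.1 to 41.1 in Vehicle (0.31 ± 0.24). Slc25a38, the glycine carrier of haem synthesis, was at 12.1 CPM in PCN 27 against 7.68 and 5.03 (0.34 ± 0.29). The carriers' median was 0.0035 without PCN 27 and -0.22 without PCN 5, the library of this group with the highest slow-fibre sum. Among partners, Timm9 was at 0.43 ± 0.19, Cpt1a, the outer membrane acyltransferase upstream of Slc25a20, at 0.69 ± 0.32 and Timm8a1 at -0.71 ± 0.47, each at an adjusted p of 0.998.

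Several carriers varied widely between libraries of the same group. The within-group SD of log2(CPM + 0.5) was 1.03 for Slc25a34, above that of 99.6% of 13375 genes. Slc25a34 (chromosome 4, 141618824 to 141623821) was at 28.5, 50.4 and 22.9 CPM in libraries Chow 8, 17 and 19, at 12.4, 19.6 and 28.1 in HFD 4, 30 and 38, at 12.1, 19.1 and 66.9 in Vehicle 15, 23 and 55, and at 62.0, 8.49 and 31.5 in PCN 5, 11 and 27. The span from PCN 11 to Vehicle 55 was 7.87-fold, and 1 library stood high in Chow, Vehicle and PCN. Its Vehicle against HFD value, 0.70 ± 0.75, turned to -0.37 without Vehicle 55.

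Slc25a20 (chromosome 9, 108662088 to 108684641) showed the same libraries on top. It was at 58.8, 84.7 and 52.4 CPM in libraries Chow 8, 17 and 19, at 45.2, 62.1 and 72.0 in HFD 4, 30 and 38, at 51.7, 59.5 and 111 in Vehicle 15, 23 and 55, and at 108, 45.3 and 65.5 in PCN 5, 11 and 27. Its Vehicle against HFD value of 0.31 ± 0.32 turned to -0.11 without Vehicle 55. For Slc25a34, Slc25a20, Slc25a11 and Slc25a3 the 3 highest libraries were Chow 17, Vehicle 55 and PCN 5. These are the 3 libraries with the largest mitochondrial shares of counts, and they are 3 of the 4 with the highest slow-fibre sums. Chow 19, the fourth, was not among the highest for these genes, and the part of fibre makeup in these levels was not tested.

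**Figure D5:**
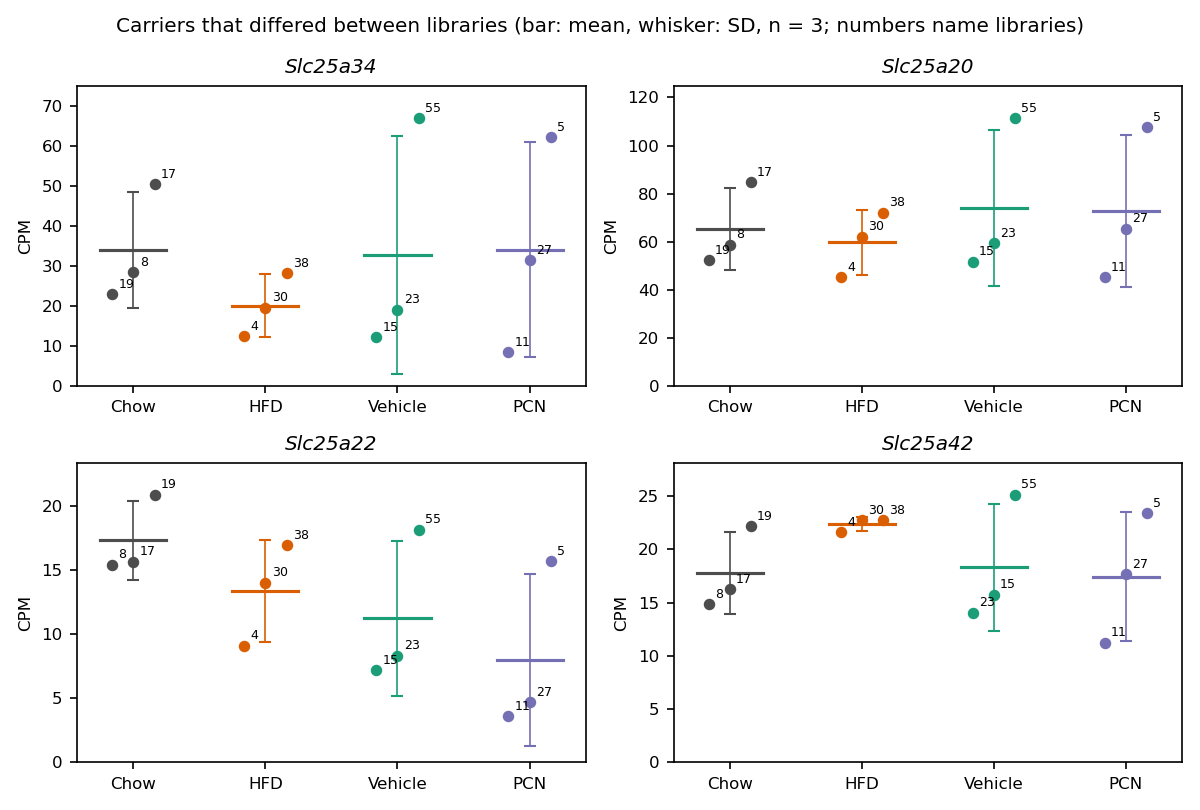
CPM of Slc25a34, Slc25a20, Slc25a22 and Slc25a42 in each library, by group (bar: mean, whisker: SD, n = 3, axes from 0, numbers name libraries). Vehicle 55 and PCN 5 are the highest of their groups in all 4 panels, at 66.9 and 62.0 CPM for Slc25a34.

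Slc25a22, a glutamate carrier, spread in another way (SD 0.680). It was at 15.4, 15.7 and 20.9 CPM in libraries Chow 8, 17 and 19 and at 9.11, 14.0 and 16.9 in HFD 4, 30 and 38. In the injected groups only Vehicle 55 (18.2) and PCN 5 (15.7) were at such levels, against 7.22 and 8.33 in Vehicle 15 and 23 and 3.59 and 4.68 in PCN 11 and 27. Slc25a1 (SD 0.747) and Slc25a10 (0.674) were highest in HFD 38, at 5.67 and 6.34 CPM.

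At the other end, Slc25a51 had an SD of 0.0785, below that of all but 0.493% of genes, and ran from 46.6 to 62.2 CPM. Slc25a16 had an SD of 0.114. Slc25a4 (0.231) and Slc25a3 (0.233) lay below the median of all genes, 0.262, and 23 of the 37 carriers lay above it, with a carrier median of 0.283.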

How the data were processed

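Skeletal muscle RNA of 12 libraries in 4 groups of 3 was used. The values deposited by the authors are raw gene counts in 2 tables. HISAT2, HTSeq, DESeq2, GRCm38 and mm10 are listed, without versions, in the submitters' processing notes. No strand setting is stated, so antisense and overlapping genes, which touch 11 of the 37 carriers, cannot be separated. Every contrast was fitted over all genes, using the 6 libraries of its groups, with edgeR 4.0.16 (R 4.3.3), using TMM, a minimum count of 10, robust quasi-likelihood tests and Benjamini-Hochberg adjustment at 0.05. Vehicle and HFD were compared on the 21976 genes that both tables hold. Log2 fold changes are the first group minus the second, and SE is the absolute log2 fold change over the square root of F. Levels per kb use the merged length of all exons that GENCODE lists for a gene, not the length of the transcript expressed in muscle. Ranks and shares per kb depend on these lengths. Table starts and ends equalled that annotation for 50 of 52 genes checked, not for Slc25a28 and Slc25a45. Replicates differed far beyond counting noise (mean chi-square per gene 21.6 to 121), and each library was treated as 1 sample. The chi-square cannot show whether libraries came from separate mice.

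Named genes were the 8 carriers with the lowest p in each comparison, the 10 highest per length, a set list, relatives under other symbols and 4 partners per comparison. A partner gene that this rule names is not reported here. Slc25a22, Slc25a10, Slc25a44 and other carriers outside this rule, and the libraries singled out, were chosen after their values were seen. Members and lists were chosen with earlier results of these data known. Alternatives were DESeq2 1.42.0, other scaling, filters, thresholds, a slow-fibre covariate, 12 libraries in 1 fit and each library left out. For HFD against Chow, Chow 17 and Chow 19 were also left out together, which leaves Chow 8 alone in its group. The steps were tested on simulated counts.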

Additional observations from a re-analysis of the deposited data

How the results depend on the processing

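The count of carriers past the threshold was 0 under every alternative run for HFD against Chow and for PCN against Vehicle. For Vehicle against HFD it was 1 at an adjusted p of 0.1, 1 with the slow-fibre covariate (Slc25a28 both times) and 0 to 3 with 1 library left out, the 3 without Vehicle 55. Leaving out 1 library gave medians over the carriers of -0.12 to 0.004 for HFD against Chow, -0.22 to 0.0035 for PCN against Vehicle and -0.02 to 0.09 for Vehicle against HFD. Counts over all genes moved more: for Vehicle against HFD, 193 genes became 607 with DESeq2, 571 with no filter, 792 with the covariate, 564 at an adjusted p of 0.1, 0 with 12 libraries in 1 fit, 0 without HFD 30 or Vehicle 23, 48 without HFD 38, 14 without HFD 4 and 9 without Vehicle 15. For HFD against Chow, 0 became 40 with DESeq2, 237 with no filter, 219 without Chow 19 and 7 without Chow 8, and for PCN against Vehicle, 0 became 21 with no filter. The cause was not tested. Of 1020 alternative values for 83 results on single genes, 54 had the other sign and 7 passed, 4 of them for carriers, all in Vehicle against HFD. The medians over the 10 highest carriers and the respiratory chain were added after the data were seen. The slow-fibre covariate rests on 3 genes. No paired analysis was possible because library numbers are unique and nothing pairs the libraries.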

Other observations

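Cpt1b, the muscle form of the outer membrane carnitine acyltransferase, was at 0.289 to 1.97 CPM in the 12 libraries, below Cpt1a (9.54 to 25.5 CPM). In GENCODE, 81.4% of its exon bases lie in exons of Gm44502 on the same strand, so its deposited count cannot be read as its level. Among the 37 carriers the overlap with a gene on the same strand was largest for Slc25a51, at 2.27%.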
